A study of Mus musculus with 12 samples.

Results

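The genes described here encode the SR proteins and the heterogeneous nuclear ribonucleoproteins (hnRNPs), the 2 large families of general pre-mRNA splicing regulators. They were chosen by symbol, as every gene in the deposited tables named Srsf with a number or starting with Hnrnp, together with Tra2a and Tra2b. This gave 33 of 23513 genes, 13 in the SR family (Srsf1 to Srsf7, Srsf9 to Srsf12, Tra2a and Tra2b) and 20 in the hnRNP family (Hnrnpa0, Hnrnpa1, Hnrnpa2b1, Hnrnpa3, Hnrnpab, Hnrnpc, Hnrnpd, Hnrnpdl, Hnrnpf, Hnrnph1, Hnrnph2, Hnrnph3, Hnrnpk, Hnrnpl, Hnrnpll, Hnrnpm, Hnrnpr, Hnrnpu, Hnrnpul1 and Hnrnpul2). The rule itself rests on the names and on no measured value, but it was set with earlier results of these data known.

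SR proteins carry RNA recognition motifs and a tail rich in arginine and serine, bind mostly to exonic enhancers, and recruit the spliceosomal snRNPs to nearby splice sites. hnRNPs coat nascent transcripts and often repress the exons to which they bind, so that the balance of both families helps to decide which exons a cell includes. Many of these genes control their own level through alternative exons or introns that send the transcript to nonsense-mediated decay. During corticogenesis, splicing programs change as radial glial cells (RGCs), the neural stem cells of the ventricular zone, give rise to intermediate progenitor cells (IPCs) and neurons.

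Nuclei came from the cerebral cortices of C57BL/6J embryos whose dams had received either saline or ethanol (EtOH, 2.5 g/kg) by intraperitoneal injection. Each dam was injected once a day between E8.5 and E13.5, 6 times in all. The saline group held 5 embryos, S1-1 and S1-2 of dam S1 and S2-1, S2-2 and S2-4 of dam S2, and the EtOH group held 6 embryos, E1-1 and E1-2 of dam E1 and E2-1 to E2-4 of dam E2. Batch 1 held the litters of S1 and E1 and batch 2 those of S2 and E2, and the labels give embryonic day 14 where the methods give collection at E14.5. The question was how exposure during early neurogenesis changed gene expression by cell type, for which the authors placed 50550 nuclei in 25 clusters of RGCs, IPCs, projection neurons (PNs), interneurons and other cells.

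The unit of measurement was the raw count of unique molecular identifiers (UMIs), added up for each embryo by cluster or over all nuclei, and levels are given as CPM, the count of a gene relative to all UMIs of the same sum. Depth differed between the groups, with 44017566 to 83061737 UMIs per saline embryo and 14078316 to 38034349 per EtOH embryo, and median UMIs per nucleus of 6325 to 9051 and 4071 to 6911. The lowest saline median was that of S2-4 and the lowest EtOH median that of E1-1. Each member still rested on 133 to 36193 UMIs per embryo over all nuclei. RGCs made up 25.7 ± 3.97% (SD, n = 5) of nuclei in saline and 20.7 ± 2.48% (n = 6) in EtOH embryos, and PNs 28.9 ± 6.23% and 36.6 ± 5.21%. Malat1, a nuclear-retained RNA, lay at 12156 to 15973 CPM in saline and 15123 to 17389 CPM in EtOH embryos, and 76 ribosomal protein genes together at 842 to 1530 and 1330 to 1546 CPM. The 10 markers of non-neuronal cells summed to 24.3 to 41.4 CPM in saline and 33.5 to 39.6 CPM in EtOH embryos, with none of them at 0 in every embryo. In batch 1 the mean of this sum was 25.6 CPM in saline and 38.9 CPM in EtOH embryos, and in batch 2 it was 36.1 and 37.4 CPM. Over all nuclei the 10 markers had a median log2 fold of -0.33 and were mostly below 0, among them Col1a1 (-1.36 ± 0.57), Cd93 (-0.91 ± 0.33) and the microglial Ly86 (-0.31 ± 0.32), none of which passed, while the microglial P2ry12 was called higher by edgeR (0.77 ± 0.19, adjusted p = 0.0223). The 8 erythroid markers summed to 17.5 to 169 CPM in saline and 41.9 to 70.9 CPM in EtOH embryos, and the 7 tested had a median of -0.28. Hbb-y (-1.76 ± 0.84) and Hba-x (-1.42 ± 0.85) did not pass, and Alas2 was called higher (0.59 ± 0.18, adjusted p = 0.037). With the cluster mix held fixed, or with Malat1 and Meg3 left out of the library size, 19 and 21 of the members were lower over all nuclei at an adjusted p under 0.05, against 21 in the fit as reported below. The part of the depth, the ribosomal protein genes and the non-neuronal and erythroid markers in the other results was not tested beyond thinning the nuclei, and fewer cells of a type and less RNA per cell cannot be told apart in sums over all nuclei. Libraries shared between 1 and 18 nucleus barcodes per pair.

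Levels in the cell types were compared first, over the embryos of both treatments. The summed level of the SR genes was 2443 ± 117 CPM in RGCs, 2226 ± 121 in IPCs, 1684 ± 86.0 in interneurons and 1418 ± 79.1 in PNs (SD, n = 11). The hnRNP genes summed to 4095 ± 135 CPM in RGCs, 3745 ± 166 in IPCs, 2623 ± 141 in interneurons and 2227 ± 116 in PNs. RGCs and IPCs thus held more of both families per UMI than PNs and the interneuron class, which includes the late precursors of cluster 10. RGCs were above PNs in 11 of 11 embryos for both sums. Between RGCs and PNs the ratio of means was 1.72 for the SR genes and 1.84 for the hnRNP genes. This order was shared by nearly every member. For 32 of the 33 genes the RGC level exceeded the PN level in all 11 embryos, which held for 43.8% of the 18138 genes tested over all nuclei. The highest of the 4 main classes was the RGCs for 24 members, the IPCs for 8 and the PNs for 1.

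Among single clusters the SR sum was highest in the interneuron precursors of cluster 3, at 2527 ± 141 CPM, and lowest in the PN cluster 25, at 1084 ± 142 CPM (n = 7). The hnRNP sum was highest in RGC cluster 2, at 4222 ± 188 CPM, and lowest again in cluster 25, at 1530 ± 183 CPM. Clusters within a class were not all alike. The early PNs of cluster 9 had 1774 ± 82.0 CPM of SR genes, above the 1244 ± 70.8 CPM of the rostral subcortical PNs of cluster 4. The late interneuron precursors of cluster 10 had 4057 ± 153 CPM of hnRNP genes, in the range of the RGC clusters, while the interneurons of cluster 7 had 2147 ± 175 CPM. Within the IPCs, the mitotic cluster 17 had 2451 ± 151 CPM of SR genes and the non-mitotic cluster 6 had 2125 ± 114 CPM. Neighbouring PN clusters, such as clusters 1 and 8 at 1495 ± 79.7 and 1511 ± 65.0 CPM of SR genes, did not differ beyond their spread.

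**Figure D1:**
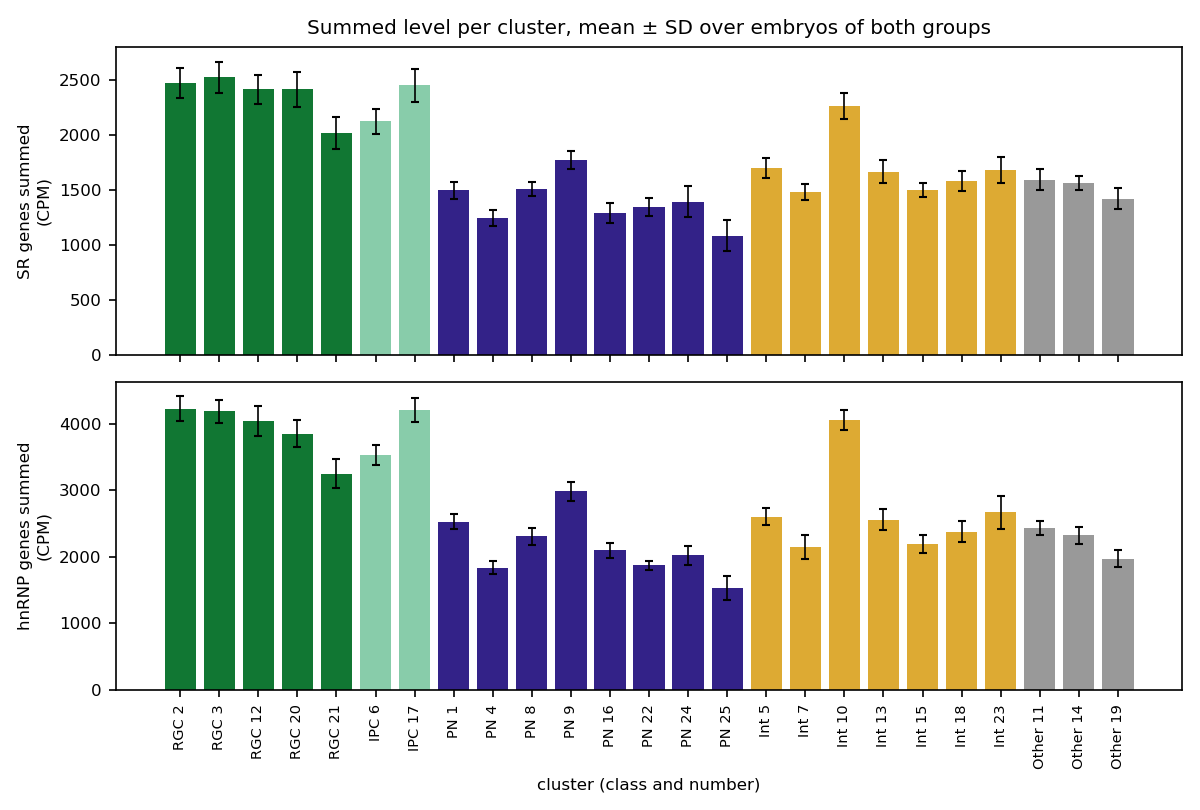
Summed CPM of the 13 SR genes (top) and the 20 hnRNP genes (bottom) in each of the 25 clusters, as the mean over embryos with an SD bar, with bars coloured by class. RGC and IPC clusters and the late interneuron precursors of cluster 10 are high, and PN cluster 25 is lowest in both panels.

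Srsf12 ran against this order. It encodes an SR protein that can oppose other SR proteins in splicing assays, and its level was 5.61 ± 1.23 CPM in RGCs and 5.57 ± 1.77 in IPCs against 22.7 ± 1.41 in PNs and 22.5 ± 2.57 in interneurons. Its highest cluster was cluster 19, at 41.9 ± 10.9 CPM, and the PN level was above the RGC level in all 11 embryos. Among the members with at least 20 CPM in 1 class, those with the widest range otherwise began with Hnrnpa3, an hnRNP of the A/B group. It had 230 ± 14.3 CPM in RGCs and 79.5 ± 6.84 in PNs, a ratio of 2.89. Srsf10, whose product represses splicing when it is dephosphorylated, had 236 ± 11.6 and 94.7 ± 8.37 CPM. Srsf6 had 144 ± 17.3 CPM in RGCs and 60.6 ± 9.95 in PNs. In these 3 genes every embryo's RGC level lay above every PN level. Hnrnpf, which binds runs of guanines, had 85.3 ± 3.70 and 36.1 ± 3.52 CPM, and Hnrnpl, which binds CA repeats, 179 ± 12.1 and 77.8 ± 5.66 CPM.

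The narrowest ranges over the classes belonged to Hnrnpa0, Srsf11, Tra2a and Hnrnpc. Hnrnpa0 had 27.5 ± 4.45 CPM in RGCs and 20.2 ± 4.03 in PNs, and its embryos overlapped between these classes. For Srsf11, a factor for neuronal microexons, the highest class was the IPCs with 227 ± 16.5 CPM, within the spread of the RGCs at 224 ± 15.7, and the lowest the PNs with 166 ± 11.1. Tra2a, which binds GAA-rich enhancers, had 513 ± 43.2 CPM in IPCs and 337 ± 32.2 in PNs. Hnrnpc, a protein that coats uridine-rich stretches of introns, had 273 ± 15.7 and 173 ± 16.6 CPM.

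EtOH was compared with saline first over all nuclei of each embryo, with edgeR's quasi-likelihood test and p-values adjusted over all genes by the Benjamini-Hochberg method. Calling a gene took an adjusted p under 0.05 together with a fold below 0.8, or above its inverse. Both families leaned to lower levels after EtOH. Of the 33 genes, 21 were lower at an adjusted p under 0.05 before the fold limit, 9 of 13 SR genes and 12 of 20 hnRNP genes, and 0 were higher. Over all genes tested, 10.5% were lower and 10.5% higher by the same rule, and among the 8774 genes with at least the level of the lowest member 18.5% were lower and 9.39% higher. The median log2 fold over the members was -0.18, against 0.01 over all genes and -0.06 over the genes of at least that level. Most of these differences were small. With the fold limit, 2 of the 33 members were called lower, beside 3.55% of all genes and 4.62% of those with at least the lowest member's level, and 0 were called higher, beside 8.55% of all genes. The 2 became 4 with RLE factors, with DESeq2 and with no filter on low counts, each adding Hnrnpd and Tra2a. Over all genes, 643 called lower became 735, 934 and 703 in those fits. The members called lower were 4 without E1-1, adding Hnrnpd and Hnrnph1, where 636 genes in all were called lower. They were 6 without S2-4, where 1145 genes in all were called lower against 643 with every embryo.

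The count of 21 depended on the scale, the depth and the embryos. Relative to total UMIs, without the TMM factors, it was 10 of 33, with 4.07% of all genes lower, and the split of called genes over the whole table moved from 643 lower and 1550 higher to 247 lower and 1346 higher. After every nucleus was thinned to 2000 UMIs it was 13, with 5.16% of all genes lower. With counts summed per dam it was 2 (0.671% of all genes), and with voom and the dam as a random block 20 (7.89%). In batch 1 alone it was 10 (10.1%), with 2 members higher beside 2173 genes in all. In batch 2 alone it was 0, where 1 gene of the whole table passed. With RLE factors it was 22 (11.6%), with DESeq2 23 (11.2%) and with batch as a block 21 (10.1%). It was 11 without S1-1 (4.22% of all genes), 10 without S1-2 (2.52%), 10 without S2-1 (3.44%) and 13 without E2-2 (5.21%), so the share of all genes fell along with that of the members. With the share of each cluster held fixed over embryos it was 19 (12.4%). All 21 genes kept a fold below 1 on the TMM, RLE and total UMI scales.

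Srsf6 and Hnrnph2 were the genes called. Srsf6, an SR protein that regulates tau and other neuronal exons, had 96.1, 107, 114, 109 and 97.9 CPM in saline embryos S1-1, S1-2, S2-1, S2-2 and S2-4. In EtOH embryos it ranged from 73.4 to 91.1 CPM with a median of 78.4 CPM. Every EtOH embryo was below every saline embryo. On the TMM scale of the fit, Srsf6 fell to 0.722 of the saline level (log2 -0.47 ± 0.07 SE, adjusted p = 0.00981). The adjusted p stayed at or under 0.0439 with each embryo left out. In mean CPM, Srsf6 was at 76.1% of saline. On the TMM scale its log2 fold was -0.47 in batch 1 and -0.46 in batch 2, and with the cluster mix held fixed it was -0.41. In mean CPM the log2 fold was -0.31 in batch 1, short of the fold limit, and -0.45 in batch 2.

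Hnrnph2, the X-linked member of the group that binds runs of guanines, had 22.1, 19.6, 22.5, 22.9 and 18.2 CPM in the saline embryos in the same order. EtOH embryos lay between 13.9 and 16.6 CPM with a median of 15.8 CPM, again below all saline embryos. On the TMM scale of the fit, Hnrnph2 fell to 0.6995 of the saline level (log2 -0.52 ± 0.08 SE, adjusted p = 0.012), and in mean CPM it was at 73.6%. The log2 fold on the TMM scale was -0.62 in batch 1 and -0.45 in batch 2, and in mean CPM it was -0.46 and -0.43. Both calls also passed with counts summed per dam, with adjusted p-values of 0.0436 for Srsf6 and 0.0437 for Hnrnph2.

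**Figure D2:**
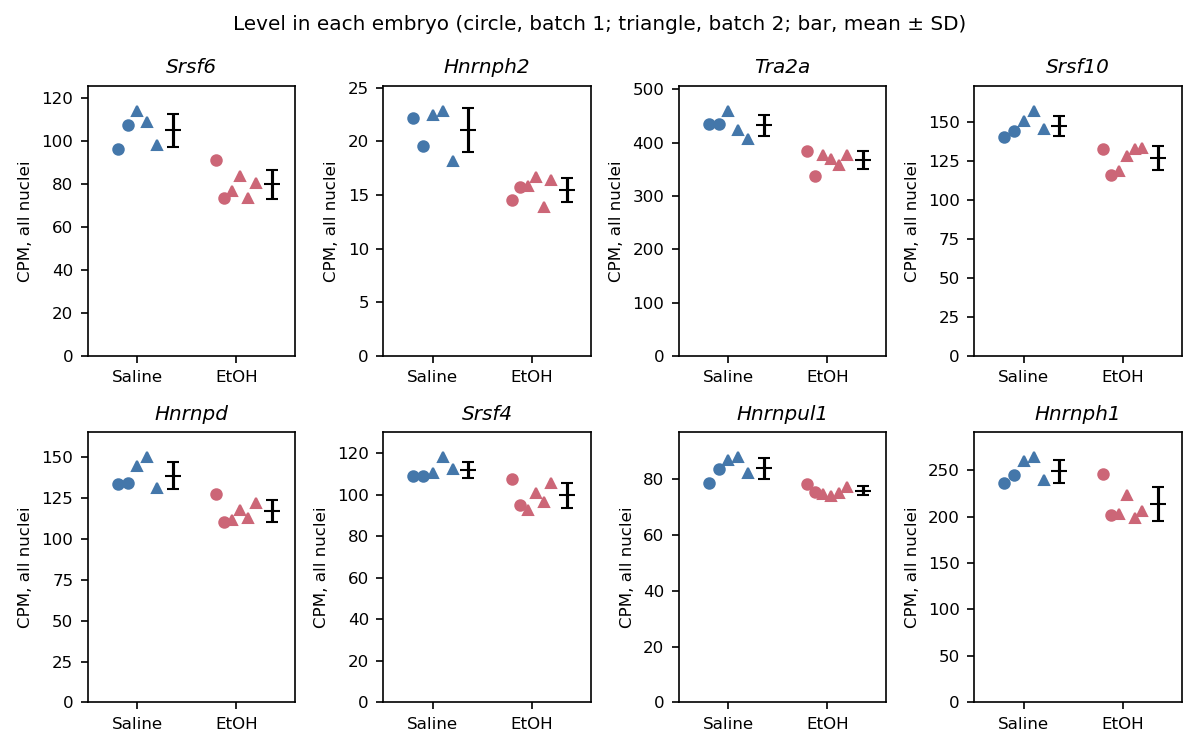
CPM over all nuclei in each saline and EtOH embryo (circles, batch 1; triangles, batch 2) with the mean ± SD of each group, for the 3 members called in a cluster or over all nuclei and the 5 with the next smallest adjusted p-values. In 7 of the 8 genes the EtOH embryos lie below all saline embryos, and in Hnrnph1 the EtOH embryo E1-1 at 246 CPM reaches into the saline range.

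The promoters of the 3 genes called over all nuclei or in a cluster are shown, since the results turn on these genes and their folds were below 1 in every cluster tested. Each sequence is the 250 bases before the RefSeq transcription start on the gene's strand, in GRCm38.p6, with TGACG (the core of the CREB and ATF site), CCAAT (bound by NF-Y) and GGGCGG (bound by Sp factors) in capitals on either strand. The windows lie upstream of the gene bodies of the GENCODE annotation. That of Srsf6 is chr2:162931258-162931507 (plus strand), that of Tra2a is chr6:49264053-49264302 (minus strand) and that of Hnrnph2 is chrX:134600929-134601178 (plus strand).
Srsf6: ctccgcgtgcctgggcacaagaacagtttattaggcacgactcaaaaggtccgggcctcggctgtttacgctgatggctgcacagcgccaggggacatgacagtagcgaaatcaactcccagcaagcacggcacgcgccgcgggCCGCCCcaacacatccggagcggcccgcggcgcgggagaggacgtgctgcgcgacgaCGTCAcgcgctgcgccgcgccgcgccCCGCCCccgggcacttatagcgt
Tra2a: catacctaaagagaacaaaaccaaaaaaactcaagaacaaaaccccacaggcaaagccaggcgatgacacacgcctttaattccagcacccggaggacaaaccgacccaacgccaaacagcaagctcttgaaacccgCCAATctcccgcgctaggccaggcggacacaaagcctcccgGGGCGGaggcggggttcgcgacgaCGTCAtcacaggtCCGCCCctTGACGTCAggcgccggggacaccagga
Hnrnph2: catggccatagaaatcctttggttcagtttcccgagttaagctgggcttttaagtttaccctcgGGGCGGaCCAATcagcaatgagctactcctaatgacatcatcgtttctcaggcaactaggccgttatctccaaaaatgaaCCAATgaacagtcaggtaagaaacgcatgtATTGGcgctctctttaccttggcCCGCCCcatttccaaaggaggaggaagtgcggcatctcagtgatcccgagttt
Srsf6 and Tra2a hold TGACG, Tra2a also as the full TGACGTCA, while Hnrnph2 holds none and has CCAAT 3 times. Tra2a has CCAAT once, Srsf6 has none, and each of the 3 holds GGGCGG 2 times. Of the 31 members with a window in the RefSeq table, 18 had TGACG, 17 CCAAT and 26 GGGCGG in at least 1 window. By window, TGACG stood in 51.2% of 43 member windows and 17.8% of all 32851 windows, CCAAT in 48.8% and 33.8%, and GGGCGG in 81.4% and 32.7%. The member windows were richer in G and C, with a median of 68.0% against 52.4%. TGACGTCA, which contains TGACG, was in 2.33% of member windows and 1.55% of all windows. Also searched for were TATAAA and CACGTG, each in 6.98% of member windows and in 12.4% and 6.02% of all windows. These matches are letters in a window and not binding sites.

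The next genes by adjusted p were lower without passing the fold limit. Tra2a had 436, 436, 460, 424 and 407 CPM in the saline embryos and 337 to 385 CPM in the EtOH embryos, with a median of 373 (log2 -0.31 ± 0.06, adjusted p = 0.0151). The groups did not overlap, and the lowest saline embryo was S2-4. Srsf10 had 140, 144, 150, 157 and 145 CPM against 116 to 133 CPM, with an EtOH median of 130 (log2 -0.29 ± 0.05, adjusted p = 0.0121). Hnrnpd, also known as AUF, which binds AU-rich elements and marks transcripts for decay, had 134, 134, 145, 150 and 131 CPM against 110 to 128 CPM, with a median of 115 (log2 -0.32 ± 0.05, adjusted p = 0.0121). Both genes were separated between the groups as well, with E1-1 as the highest EtOH embryo for Hnrnpd.

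Srsf4, an SR protein with a long arginine-serine tail, had 109, 109, 110, 118 and 112 CPM in saline and 92.9 to 108 CPM in EtOH embryos, with a median of 98.6 (log2 -0.24 ± 0.05, adjusted p = 0.0144). Hnrnpul1, an hnRNP with a role in the DNA damage response, had 78.6, 83.7, 86.9, 87.9 and 82.0 CPM against 74.1 to 78.3 CPM, with a median of 75.2 (log2 -0.22 ± 0.04, adjusted p = 0.0144). In both genes the gap between the groups was narrow, the lowest saline embryo being S1-1 and the highest EtOH embryo E1-1. Hnrnph1, the autosomal relative of Hnrnph2, had 236, 245, 260, 264 and 239 CPM against 198 to 246 CPM, with a median of 205 (log2 -0.30 ± 0.06, adjusted p = 0.0151). Hnrnph1 and Hnrnph2 are close relatives in sequence, so their counts are uncertain where reads match both, which was not tested. Here E1-1 was above 3 of the saline embryos and the other EtOH embryos were below all of them. In all, 8 of the 33 genes had EtOH embryos all below the saline embryos, the 7 above and Hnrnpc, beside 2.16% of all genes, and 0 had them all above, beside 1.98%.

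In the SR family, 4 further constitutive and regulatory splicing factors were lower without passing the fold limit. Srsf5 was at log2 -0.29 ± 0.06, Srsf11 at -0.21 ± 0.06, Srsf1, the founding member of the family, at -0.20 ± 0.06 and Srsf3, which also serves mRNA export, at -0.19 ± 0.04, with adjusted p-values from 0.0158 to 0.0288. Tra2b, the paralog of Tra2a that cortical progenitors need for survival, was at -0.18 ± 0.04 (adjusted p = 0.0226). The embryos of the groups overlapped for these 5 genes, and relative to total UMIs only Srsf5 among them kept an adjusted p under 0.05 (0.0397). Srsf7, Srsf9, Srsf12 and Srsf2 did not pass. Srsf7, an export adaptor like Srsf3, was at -0.06 ± 0.06 and Srsf9 at -0.01 ± 0.08, and both had a fold above 1 relative to total UMIs. Srsf12 was at 0.08 ± 0.08 and was below 1 with the cluster mix held fixed. Srsf2, the marker of nuclear speckles, had 73.9, 74.3, 79.4 and 76.7 CPM in 4 saline embryos and 104 CPM in S2-4, against 84.0 to 109 CPM in EtOH embryos (log2 0.13 ± 0.08, adjusted p = 0.245). Apart from S2-4, the saline embryos were below all EtOH embryos, and without S2-4 Srsf2 was at 0.20 ± 0.06 (adjusted p = 0.0185), which was not past the fold limit. S2-4 had a median of 6325 UMIs per nucleus, within the EtOH range of 4071 to 6911. The other saline embryos had 8365 to 9051, so without S2-4 the treatment and the depth per nucleus cannot be told apart.

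In the hnRNP family, Hnrnpc had 221, 211, 225, 235 and 205 CPM in saline and 180 to 202 CPM in EtOH embryos (log2 -0.25 ± 0.05, adjusted p = 0.0154). Hnrnpul2 was at -0.23 ± 0.07, Hnrnpf at -0.23 ± 0.06, Hnrnpu, the scaffold attachment factor of the nuclear matrix, at -0.20 ± 0.06 and Hnrnpll, a regulator of CD45 exons in lymphocytes, at -0.18 ± 0.04, with adjusted p-values from 0.0197 to 0.0321. The differences were smaller in 3 more genes that passed. Hnrnpa2b1, which takes part in RNA transport and in the reading of methylated adenosine, was at -0.15 ± 0.05, Hnrnpm at -0.15 ± 0.04 and Hnrnpr, a partner of the SMN protein in motor axons, at -0.15 ± 0.05, with adjusted p-values up to 0.0439. Of these 8 genes, only Hnrnpc kept an adjusted p under 0.05 relative to total UMIs (0.0354), and with the cluster mix held fixed Hnrnpa2b1 (0.0919) and Hnrnpr (0.133) no longer passed.

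The other 8 hnRNP genes did not pass. Hnrnpk, which binds poly-C tracts, was at -0.15 ± 0.05, Hnrnpa3 at -0.12 ± 0.05, Hnrnpl at -0.11 ± 0.06, Hnrnpab at -0.10 ± 0.06, Hnrnph3 at -0.07 ± 0.05 and Hnrnpdl, the paralog of Hnrnpd, at -0.01 ± 0.05, with adjusted p-values of 0.0611 or more. Hnrnpa0 and Hnrnpa1, the classical antagonist of SR proteins at splice sites, had values above 0, at 0.09 ± 0.12 and 0.06 ± 0.09. In both, the saline embryos spread widely. Hnrnpa1 had 50.2, 51.9, 57.0, 85.0 and 69.4 CPM in the saline embryos, with the embryos of dam S1 lowest and S2-2 highest, and 65.3 to 72.3 CPM in EtOH embryos. Hnrnpa0 had 17.3, 15.8, 19.1, 30.4 and 23.8 CPM against 21.8 to 25.6 CPM. Processed copies of Hnrnpa1 are common in mammalian genomes, so its counts are uncertain where reads match more than 1 copy.

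**Figure D3:**
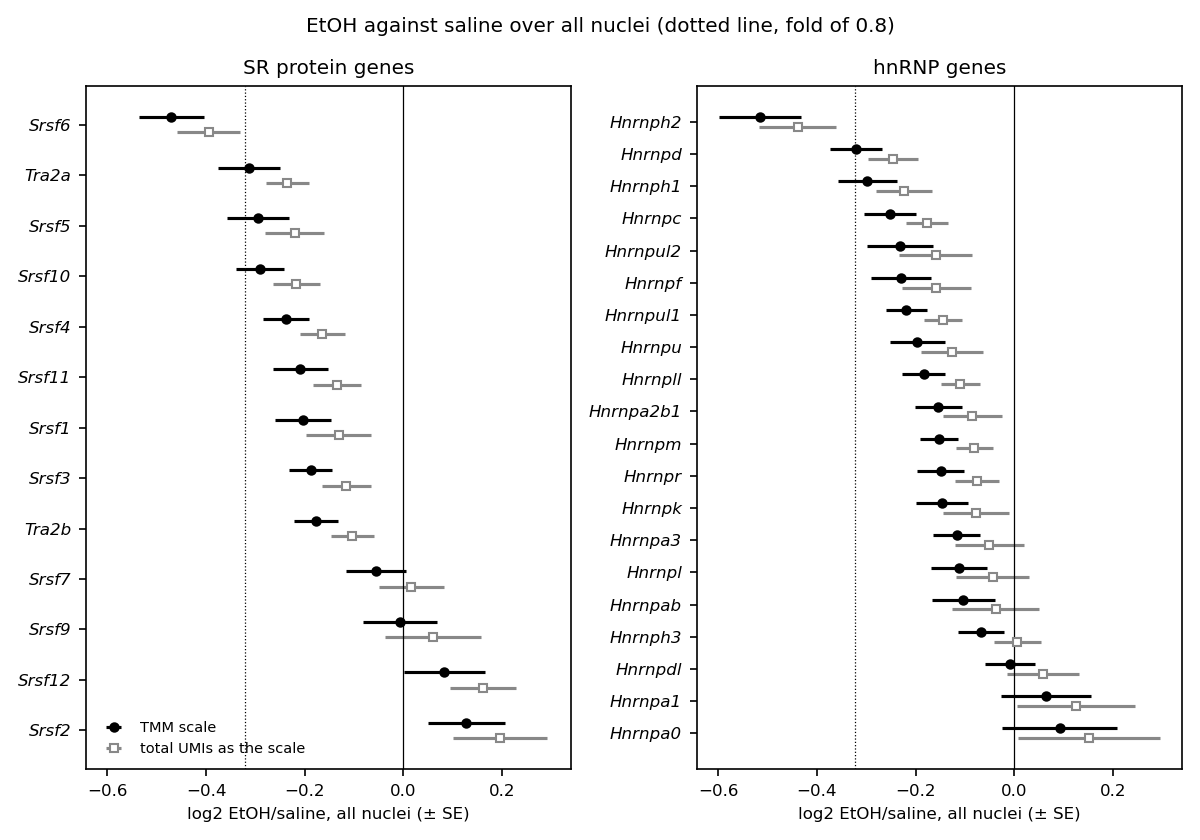
log2 fold of EtOH over saline with its SE over all nuclei for each SR gene (left) and hnRNP gene (right), on the TMM scale (filled circles) and relative to total UMIs (open squares), with a dotted line at a fold of 0.8. Srsf6 and Hnrnph2 lie beyond the line on both scales, and the values relative to total UMIs lie to the right of the TMM values, which moves Srsf7, Srsf9, Hnrnph3 and Hnrnpdl across 0.

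The batches were also fitted apart, batch 1 as the litter of S1 against that of E1 and batch 2 as S2 against E2. Within a batch, treatment and dam therefore cannot be told apart, and littermates stand as the replicates. In batch 1, with 2 saline and 2 EtOH embryos, 7 members were called lower, namely Hnrnpc, Hnrnpd, Hnrnph2, Srsf10, Srsf5, Srsf6 and Tra2a, and Hnrnpa0 was called higher. Of all genes, 1115 were called lower and 2081 higher in that fit. In mean CPM, only Hnrnph2 of the 7 called lower was past the fold limit in batch 1, at log2 -0.46. The others ran from -0.31 for Srsf6 to -0.17 for Hnrnpd, and Hnrnpa0 was at 0.56. In batch 2, with 3 and 4 embryos, no member passed, although 31 of 33 had a fold below 1. All genes had a median log2 fold of 0.01 in that fit. The smallest adjusted p there was 0.115, for Srsf6. Tra2a had log2 folds of -0.43 and -0.23 in the batches, Srsf5 -0.36 and -0.25, and Srsf12 -0.13 and 0.23. Hnrnpa0, at 0.40 and -0.08, and Hnrnpa1, at 0.24 and -0.04, also had opposite signs. Whether the batches differed was not tested. The folds from the batch fits are on the TMM scale, where 27 of the 33 members were below 1 in both batches. On plain CPM 16 were, and in batch 1 the mean CPM of 17 members was higher in EtOH than in saline embryos, as was the hnRNP sum at 2802 against 2756 CPM, while the SR sum was 1708 against 1822 CPM.

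**Figure D4:**
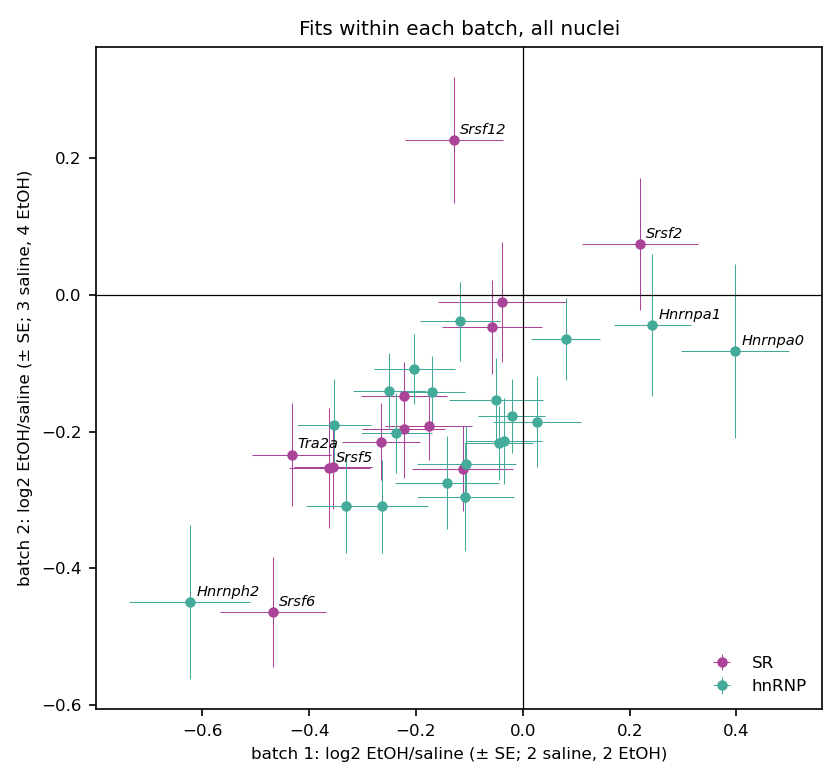
log2 fold of EtOH over saline with SE over all nuclei in batch 1 (horizontal) against batch 2 (vertical) for the SR (purple) and hnRNP (green) genes, from separate fits on the TMM scale. On this scale 27 of the 33 genes lie below 0 in both batches, Srsf6 at -0.47 and -0.46, while Hnrnpa0 and Hnrnpa1 lie above 0 in batch 1 and below 0 in batch 2.

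Within clusters, 796 pairs of a member and a cluster passed the filter on low counts, 29 short of the full 825. Again the members leaned one way. In 563 of the 796 pairs (70.7%) the fold was below 1, against 49.0% of the 217253 pairs of all genes. This comparison was not limited to genes of the members' level. Relative to total UMIs the fold was below 1 in 507 of 796 pairs, and after thinning in 396 of 619. The shares of all pairs below 1 in these fits are not given here. Over all nuclei, the median log2 fold of all genes was 0.08 relative to total UMIs, against 0.01 on the TMM scale. At an adjusted p under 0.05 and past the fold limit, 8 pairs were called lower (1.01%), beside 0.345% of all pairs, and 0 were called higher, beside 0.438%. Without the fold limit 13 were lower, beside 0.413%, and 0 higher, beside 0.449%. At an unadjusted p under 0.05, 143 pairs were lower and 15 higher, beside 7.84% and 9.52% of all pairs. DESeq2 and voom called 0 higher as well, beside 0.901% and 2.36% of all pairs. RLE factors kept the 8 calls and added Hnrnpd in cluster 1, beside 0.377% of all pairs lower. DESeq2 kept them and added Hnrnpd in cluster 1 and Tra2a in cluster 13, beside 0.611%. All clusters share the same embryos, so the pairs are not independent.

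The 8 calls depended on single embryos. With batch as a block 3 of them remained, beside 0.187% of all pairs. Relative to total UMIs, with nuclei thinned to 2000 UMIs, with counts summed per dam and in batch 2 alone 0 pairs were called. Of all pairs, 0.129%, 0.309%, 0.296% and 0.0107% were called lower in those fits, in that order, beside 0.345% in the main fit. Leaving out S2-4 gave 34 of 794 pairs lower and 4 higher, all 4 of them Srsf2, but calls rose across the whole table in that fit, to 2.61% of all pairs lower and 6.19% higher. In that fit every saline embryo had more UMIs per nucleus at the median than any EtOH embryo. Leaving out E1-1 gave 2 lower, beside 0.154% of all pairs, S2-2 or E2-4 gave 1, and leaving out S1-1, S1-2, S2-1, E1-2, E2-1, E2-2 or E2-3 gave 0, in fits that called at most 0.105% of all pairs lower. In each of the 8 pairs the fold was below 1 with every embryo left out, which the choice of these pairs by fold and p made likely beforehand.

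Srsf6 took 6 of the 8 calls, in the callosal PNs of cluster 1, RGC cluster 2, the interneuron precursors of cluster 3, the rostral subcortical PNs of cluster 4, the migrating interneurons of cluster 5 and PN cluster 8. In RGC cluster 2 it had 162, 167, 164, 170 and 143 CPM in the saline embryos and 116 to 147 CPM in the EtOH embryos (log2 -0.37 ± 0.08, adjusted p = 0.0409). The groups met only where E2-2, at 147 CPM, lay above S2-4. In cluster 3 saline embryos had 152 to 177 CPM and EtOH embryos 128 to 148 CPM (log2 -0.32 ± 0.07, adjusted p = 0.0382). In PN cluster 8 saline embryos had 66.4 to 83.7 CPM and EtOH embryos 41.0 to 65.7 CPM (log2 -0.47 ± 0.11, adjusted p = 0.0422). In cluster 4 the ranges were 49.98 to 60.9 and 35.6 to 49.9 CPM, and in clusters 3, 4 and 8 the groups did not overlap. In cluster 5, at 85.1 to 110 and 73.1 to 89.7 CPM, they did. In cluster 1 the EtOH embryo E1-1, at 82.2 CPM, was above all saline embryos while the other 5 were below them (log2 -0.37 ± 0.10, adjusted p = 0.0479). Over all 25 clusters the Srsf6 fold was below 1 in each, with log2 values from -0.71 to -0.01 and a median of -0.36, and 19 had an unadjusted p under 0.05.

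Marker genes were called in some of the same clusters, and their part in the Srsf6 and Hnrnph2 results was not tested. Neurod2, a PN transcription factor, was lower in clusters 1 (log2 -0.69 ± 0.16) and 4 (-0.62 ± 0.10), and Mki67, a marker of proliferation, in clusters 3 (-0.42 ± 0.10) and 8 (-0.999 ± 0.21). Hes1, an RGC transcription factor, was higher in cluster 3 (0.60 ± 0.15), and P2ry12, a microglial receptor, in cluster 4 (1.32 ± 0.24).

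Tra2a was called in the migrating interneurons of cluster 5. It had 438, 458, 468, 447 and 413 CPM in the saline embryos and 326 to 401 CPM in the EtOH embryos, without overlap (log2 -0.33 ± 0.07, adjusted p = 0.0291). Its fold was below 1 in all 25 clusters, with a median log2 of -0.24, and in cluster 1 it was lower without passing the fold limit (log2 -0.28 ± 0.06, adjusted p = 0.0276). Hnrnph2 was called in cluster 4, with 16.8, 12.6, 11.5, 16.98 and 11.4 CPM in saline and 4.73 to 9.96 CPM in EtOH embryos (log2 -0.87 ± 0.20, adjusted p = 0.0495). The EtOH values there rest on only 10 to 43 UMIs per embryo, and the groups did not overlap. Hnrnph2 was tested in 21 clusters and was below 1 in all of them.

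Hnrnpd, Srsf10 and Hnrnph1 in cluster 1 and Hnrnph1 in cluster 8 were lower without passing the fold limit. Their log2 folds were -0.32 ± 0.07, -0.27 ± 0.07, -0.26 ± 0.07 and -0.28 ± 0.07, with adjusted p-values of 0.0271, 0.0392, 0.0394 and 0.0436. Of the 26 members tested in all 25 clusters, 5 had a fold below 1 in every one, Srsf6, Tra2a, Hnrnpd, Hnrnph1 and Hnrnpc, beside 4.51% of the 2973 genes tested so widely, and 0 had a fold above 1 in every one, beside 3.06%. On the total UMI scale Hnrnpc was below 1 in 24 clusters and the other 4 in all 25. At the other end, Srsf2 was above 1 in 22 of 25 clusters with a median log2 of 0.21, and Hnrnpa1 in 23 of 25 with a median of 0.18. Neither was called in any cluster with all embryos, and Srsf2 had an unadjusted p under 0.05 in 9 clusters. Hnrnpdl was above 1 in 22 of 25 clusters, Srsf7 in 16 of 25, Hnrnpa0 in 15 of 22 and Srsf9 in 11 of 15.

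**Figure D5:**
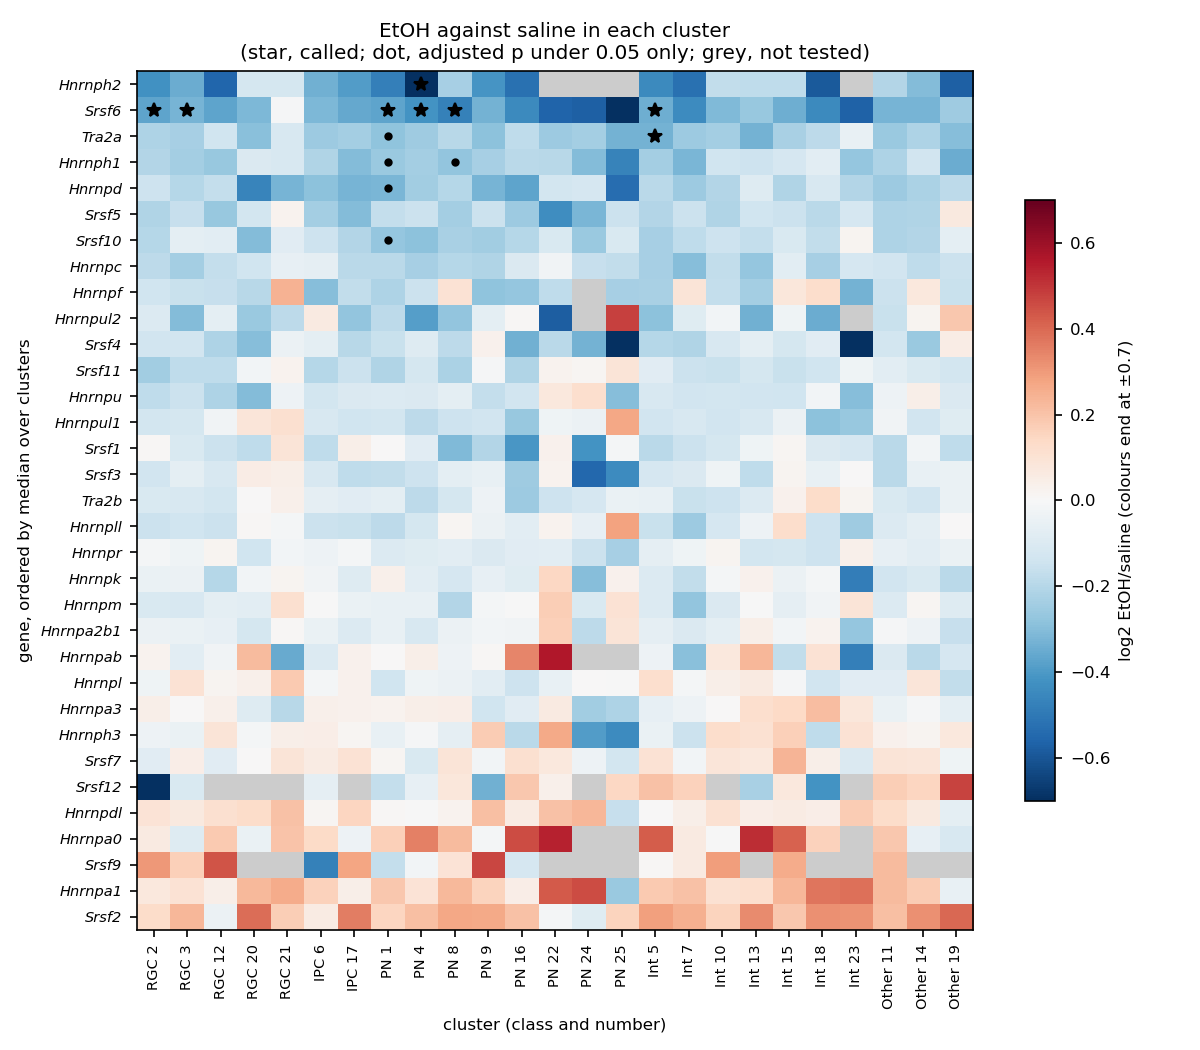
log2 fold of EtOH over saline (colour, ending at ±0.7) for each member (rows, by median over clusters) in each cluster (columns, by class), with stars for the 8 called pairs, dots for the 5 pairs at an adjusted p under 0.05 only and grey for pairs not tested. Hnrnph2, Srsf6, Tra2a, Hnrnph1 and Hnrnpd are blue throughout, and Srsf2 and Hnrnpa1 are red in most columns.

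Whether PNs and RGCs responded differently was tested as an interaction, with the sums of both classes in 1 fit and the embryo as a block. By edgeR 0 of the 33 members passed, and 12 (36.4%) had an unadjusted p under 0.05, beside 11.2% of all genes. DESeq2 also gave 0, with 2 at an unadjusted p under 0.05. The smallest adjusted p was 0.205, for Hnrnpl, whose log2 fold in PNs minus that in RGCs was -0.17 ± 0.05 (SE). The difference was below 0 for 31 members, beside 64.5% of all genes, but the count moved with the scale and the tool, to 23 with RLE factors, 25 relative to total UMIs and 22 with DESeq2. Across all genes 1 was called, or 0.00623%. For Srsf6 the means were 160 and 131 CPM in RGCs of saline and EtOH embryos and 69.8 and 53.0 CPM in PNs. No difference between the classes was thus detectable for any member.

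In the annotation (GENCODE M21, GRCm38), Srsf6 lies on chromosome 2 at 162931528 to 162937121 with up to 7 exons, Tra2a on chromosome 6 at 49243924 to 49264033 with up to 9, and Hnrnph2 on chromosome X at 134601179 to 134607060 with up to 4. Transcripts annotated as targets of nonsense-mediated decay are listed for 21 of the 33 members (63.6%), against 27.1% of protein-coding genes tested, and transcripts with a retained intron for 24 (72.7%) against 54.6%. The tables count genes, so these forms were not separated. The members are short, with a median gene length of 12.2 kb against 27.9 kb. Across the 33 members, Spearman's rho of length with the log2 fold over all nuclei was -0.24, and across 14707 coding genes it was also -0.24. Genes are not independent replicates, so these are descriptions. A gene on the other strand overlaps 13 members, among them Tra2a, Hnrnpd, Srsf2 and Srsf4 but not Srsf6 or Hnrnph2, and the strand used in counting is not given in the sources used here.

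Other splicing genes were counted from lists for comparison. Within clusters, 0 of 2131 pairs were called lower and 7 (0.328%) higher, which is no more than the shares of all pairs, 0.345% and 0.438%. Without the fold limit 8 were lower (0.375%) and 7 higher (0.328%), beside 0.413% and 0.449% of all pairs. Sf3b6 and Snrpe, proteins of the spliceosomal snRNPs, were higher in cluster 8 (log2 0.57 ± 0.14, adjusted p = 0.0422) and cluster 3 (0.54 ± 0.13, adjusted p = 0.044). Prpf4b, a kinase of SR proteins, was higher in clusters 5, 8 and 22, with log2 folds of 0.38, 0.33 and 0.61. Cirbp, a cold-inducible RNA-binding protein, was higher in clusters 1 and 4, at 0.62 ± 0.12 and 0.59 ± 0.14. No gene was called among 20 SR-related proteins, 4 import receptors or 10 nonsense-mediated decay factors. DESeq2 called 10 pairs lower and 13 higher, beside 0.611% and 0.901% of all pairs, edgeR called 31 and 70 without S2-4, beside 2.61% and 6.19%, and with batch as a block 0 and 3, beside 0.187% and 0.232%, so that these counts move with the fit as those of all genes do.

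Over all nuclei, the lists at an adjusted p under 0.05 stand against the shares of all genes, 10.5% lower and 10.5% higher, and of the genes with at least the lowest member's level, 18.5% and 9.39%. The 20 hnRNP proteins listed under other symbols had a median log2 of -0.17, with 10 lower at an adjusted p under 0.05 before the fold limit, among them Ewsr1 (-0.30 ± 0.06), Pcbp2 (-0.31 ± 0.05), Matr3 (-0.29 ± 0.06) and Tardbp (-0.26 ± 0.05), and Cirbp higher (0.54 ± 0.13, adjusted p = 0.0216). Of the 20 SR-related proteins 7 were lower and 0 higher, with a median of -0.11. The 35 snRNP proteins had a median of 0.01, with 2 lower and 5 higher. Among the 9 kinases of SR proteins, Dyrk1a fell (-0.32 ± 0.06, adjusted p = 0.0128), Srpk3 was higher (0.97 ± 0.25, adjusted p = 0.0224), Clk4 was lower without passing the fold limit (-0.27 ± 0.06) and Prpf4b higher without passing it (0.23 ± 0.08). Import receptors had a median of -0.16, with Tnpo1 and Kpnb1 lower, and decay factors a median of -0.09, with 3 of 10 lower. Over all nuclei Mki67 was at -0.63 ± 0.07, and its 59.9 to 81.0 CPM in EtOH embryos did not overlap the 86.2 to 108 CPM of saline embryos. Top2a, the other proliferation marker listed, was at -0.19 ± 0.12 (adjusted p = 0.266), with overlapping groups at 144 to 204 CPM in EtOH and 136 to 259 CPM in saline embryos, and in batch 1 its mean CPM was higher in EtOH embryos.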

How the data were processed

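The authors aligned the 10x 3' libraries to mm10 with Cell Ranger at default settings, filtered nuclei with Seurat, removed low-transcript, thalamic and non-neuronal clusters, and deposited raw UMI counts per embryo and cluster. The strand and intron settings are not given in the sources used here. A further saline embryo, S2-3, is in the labels but had no counts here. The paper states that a saline sample, which it does not name, was removed because its cells were distributed differently over the clusters. No doublet caller was run. Counts were summed per embryo and cluster, leaving out sums of fewer than 10 nuclei and requiring at least 2 embryos per group, so that cluster 25 was tested with 5 saline and 2 EtOH embryos. They were tested with edgeR 4.0.16 (glmQLFit, TMM, filterByExpr) in R 4.3.3. Alternatives used DESeq2 1.42.0 and voom from limma 3.58.1, the latter taking the dam as random, and the scripts were checked on simulated counts. Tables and figures were made with Python 3.11.15, pandas 2.3.3, SciPy 1.17.1 and matplotlib 3.10.9. Embryos were taken as independent although each treatment had 2 dams, so p-values measure the spread between embryos, littermates included, and only the alternatives with the dam account for it.

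The members and the gene lists were chosen with earlier results of these data known. Values per embryo are given for members called in at least 1 cluster or over all nuclei and for those with the smallest adjusted p-values up to 8 genes, levels by class for the 6 widest and 4 narrowest ranges among members with at least 20 CPM in 1 class, and list genes where called in a cluster, up to 3 per list. Other genes of the text were chosen after their values were seen. Batch pairs the groups by the labels, with a litter of each treatment in each batch. Deviations of saline and EtOH embryos of the same batch correlated between -0.33 and 0.34 over 16 pairs, with a median of -0.01. Those of embryos of different batches correlated between -0.40 and 0.20 over 14 pairs, with a median of 0.02. The alternatives covered the normalization, the filters, the batch, the dam, the depth, the tool and each embryo left out, and the fits within a batch, relative to total UMIs and with the cluster mix held fixed (20 clusters with at least 10 nuclei in every embryo, each scaled to its mean share of UMIs) were added after seeing the data. No pair of littermates was a duplicate by a chi-square of their counts. Errors are SDs between embryos or SEs of the fit and include the counting error. Thinning left out 387 nuclei below 2000 UMIs, 177 saline and 210 EtOH.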

Additional observations from a re-analysis of the deposited data

Results flagged for a closer look

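A sample far from the rest of its group was looked for in each group of embryos, for the 33 members and both sums over all nuclei, by the gap to the nearest embryo relative to the group's range. Chance flags about 1 in 20 such groups, and 7 of 70 were flagged. Embryo S2-4 stood above the other saline embryos for Srsf2, at 104 CPM, and for Srsf7, at 218 CPM. Saline embryo S2-1 was highest for Srsf11, at 222 CPM, and S2-2 for Hnrnpf, at 59.9 CPM. Embryo E1-1, which had the fewest UMIs, was the highest EtOH embryo for Hnrnpu at 276 CPM, for Hnrnpf at 55.3 CPM and for Hnrnpul2 at 41.5 CPM. With E1-1 left out, Hnrnpu had a log2 fold of -0.23 ± 0.05 against -0.20 ± 0.06 with all embryos.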

How the results depend on the processing

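Over all nuclei, the fit of the report called 2 members lower and 0 higher. RLE size factors, no filter on low counts and DESeq2 each gave 4 lower, batch 1 alone 7 lower and 1 higher, batch 2 alone 0, and no fold limit 21 lower. Over all genes 643 were called lower and 1550 higher, against 735 lower with RLE factors, 703 with no filter, 934 with DESeq2 and 1115 lower and 2081 higher in batch 1. Leaving out 1 embryo gave 2 to 6 lower and 0 higher, with 256 to 1145 lower and 153 to 2984 higher over all genes. Within clusters, 8 pairs were called lower and 0 higher. This became 0 lower relative to total UMIs, with counts summed per dam, with nuclei thinned to 2000 UMIs and in batch 2 alone. Of all pairs, 0.129%, 0.296%, 0.309% and 0.0107% were called lower in those fits, in that order. It became 29 lower with no filter, beside 1.09% of all pairs, and 13 with no fold limit, beside 0.413%. In batch 1 alone it became 13 lower and 3 higher, beside 1.49% and 2.38% of all pairs. RLE factors kept the 8 pairs and added Hnrnpd in cluster 1, beside 0.377% of all pairs. DESeq2 kept them and added Hnrnpd in cluster 1 and Tra2a in cluster 13, beside 0.611%. With batch as a replicate block, which pairs the groups, 3 pairs were lower, beside 0.187% of all pairs, and over all nuclei the block changed no call. Leaving out 1 embryo gave 0 to 34 lower and 0 to 4 higher, beside 0.0234% to 2.61% and 0.0183% to 6.19% of all pairs. For the other splicing genes within clusters, 0 lower and 7 higher became 24 and 18 with no filter, beside 1.09% and 0.976% of all pairs. DESeq2 gave 10 and 13 (0.611% and 0.901% of all pairs) and voom 4 and 22 (0.611% and 2.36%). Counts per dam gave 4 and 1 (0.296% and 0.426%) and thinning 2 and 3 (0.309% and 0.294%). Batch 1 gave 30 and 21 (1.49% and 2.38%) and batch 2 gave 0 and 0 (0.0107% and 0.0116%). The higher pairs were 3 with the replicate block (0.232%) and 3 relative to total UMIs (0.250%). Leaving out 1 embryo gave 0 to 31 lower and 0 to 70 higher, beside the shares of all pairs given above for these fits. The causes were not tested. The interaction count was 0 with RLE factors, total UMIs, no filter, DESeq2 and each embryo left out, the alternatives run for it, and the summed levels of both families in RGCs and PNs moved by less than the SD.

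Over all nuclei, 8 of the 33 log2 folds changed sign in at least 1 alternative, all in members that did not pass. Relative to total UMIs Hnrnpdl was 0.058, Srsf9 0.0599, Hnrnph3 0.00596 and Srsf7 0.0164. After thinning Hnrnpdl was 0.0132 and Srsf9 0.16, and with voom Srsf9 was 0.0157. In batch 1 Srsf12 was -0.13, Hnrnpdl 0.080 and Hnrnpab 0.0266, and in batch 2 Hnrnpa0 was -0.0823 and Hnrnpa1 -0.0437. With the cluster mix held fixed Srsf12 was -0.0493, Hnrnpdl 0.0155 and Srsf9 0.0405. With 1 embryo left out, Hnrnpdl ran from -0.0328 to 0.0436 and Srsf9 from -0.0369 to 0.0406. The fits within a batch, relative to total UMIs and with the mix held fixed were chosen after seeing the data. Of 759 values over members and alternatives, 586 kept the direction and side of the threshold, 144 in 21 members no longer passed, 7 in 5 members newly passed and 22 changed sign. EtOH embryos had fewer UMIs, which limits genes with few counts such as Hnrnph2 and Srsf9 in small clusters.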
